A study of Mus musculus with 54 samples.

Results

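Gene expression was compared between H2K myogenic progenitors that express emerin carrying the Q133H mutation and wildtype H2K myogenic progenitors on day 0, when the proliferation medium is replaced by differentiation medium. The comparison is 1 of 27 deposited tables, was chosen by its labels (wildtype T0 and Q133H T0, 3 labelled replicates of each), and uses all of its 17419 genes out of 19653 listed in any table of the series. The series holds 54 samples from 6 lines at days 0, 1 and 2. Wildtype progenitors carry an intact Emd gene and were not transduced. Q133H progenitors descend from the emerin-null EMD-/y line, were transduced with a lentivirus encoding Q133H emerin, and were kept under puromycin, which wildtype cells did not receive. They were also plated more densely for differentiation. Both lines were grown in medium with γ-interferon before day 0. Each genotype is represented by 1 line, so that the genotype, the transduction, the puromycin and the history of the line cannot be told apart.

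Emerin is a LEM-domain protein of the inner nuclear membrane that binds lamins and chromatin regulators, and its loss causes X-linked Emery-Dreifuss muscular dystrophy. H2K progenitors are conditionally immortal myoblasts from mice in which an interferon-inducible promoter drives a viral large T antigen, and for that reason γ-interferon is part of their growth medium. γ-interferon acts through its receptor, and the kinases Jak1 and Jak2, and switches on the transcription factor Irf1 and through it guanylate-binding proteins, immunity-related GTPases and the genes of antigen presentation. Myoblasts leave the cell cycle and fuse into myotubes under the direction of Myod1 and Myog, while Pax7 marks the satellite cells from which they descend.

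The table gives 1 value for each line and gene in normalized counts, and no value for a single library. The sum of a gene's 2 values is that of read counts divided by a factor for library depth. The split of that sum between the lines is shrunken toward equality, so that differences of low genes are understated. No spread between replicates, no error and no test could be computed from these values, the authors' own p-values were not used, and every difference below is a description of 2 values. A gene was called higher or lower in Q133H when the log2 ratio of (Q133H + 1) to (wildtype + 1) was at least 1 in size and the higher value was at least 10. Genes under 3 normalized counts in 1 line may have had no read there, and only the 2 values are given for them in place of a fold. The 6 libraries had relative depths between 0.965 and 1.05, and the values of all genes summed to 18.6 in wildtype and 18.2 in Q133H in units of 1e6 normalized counts.

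Emd, the targeted gene (chromosome X, 74254674 to 74261563, GRCm38), had 1954 normalized counts in wildtype and 1.97 in Q133H. The values in the other lines derived from EMD-/y cells were also low at day 0, 3.52 in EMD-/y itself and between 1.42 and 2.67 in the transduced lines. The transduced sequences thus left next to no count under mouse Emd, and the value measures the endogenous gene and not the Q133H transgene. None of the other 17 measured genes of the nuclear lamina and LEM-domain list, among them Lmna (26558 and 34347), Tmpo (9350 and 7423) and Lbr (1367 and 1508), differed by 2-fold. Over all genes 14.8% did.

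Of 13373 genes at or above the minimum, 844 (6.31%) were higher and 1131 (8.46%) were lower in Q133H, 14.8% in both directions together. The share was 12.6% among 12549 annotated genes, of which 704 were higher and 880 lower, and 47.5% among 824 genes predicted by the sequencing provider, which have no name. Differences of at least 16-fold were seen for 39 annotated genes higher in Q133H and for 85 lower. The median log2 ratio over all genes was 0.000693.

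**Figure D1:**
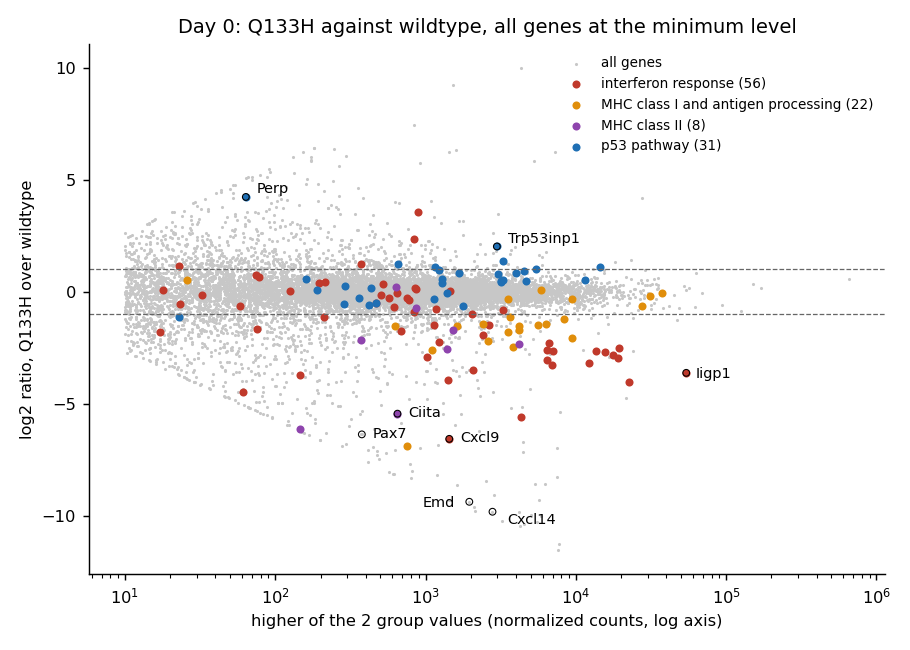
Log2 ratio of Q133H over wildtype at day 0 (vertical axis) against the higher of the 2 group values in normalized counts (horizontal log axis), 1 point for each gene at the minimum level. Coloured points are members of the interferon response, MHC and p53 lists, dashed lines mark 2-fold, and most highly expressed interferon genes lie below the lower line while several p53 pathway genes lie above the upper one.

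Of 56 measured genes of the interferon response list 28 were lower in Q133H, 4 were higher and 24 were within 2-fold, with a median log2 ratio of -1.04, against 8.46% lower over all genes. Irf1, a transcription factor that γ-interferon induces (chromosome 11, 53770014 to 53778374), had 6417 normalized counts in wildtype and 1066 in Q133H, a log2 ratio of -2.59. Irf8, a related factor, had 1420 and 93.4, and Stat2, a transcription factor downstream of type I interferon, had 2417 and 633.6. The receptor chains and kinases differed little. Ifngr1 had 505.9 and 455.8 normalized counts, Ifngr2 647.4 and 628.1, Jak1 4498 and 3441, and Jak2 1056 and 902.1. Socs1, a feedback inhibitor of the pathway, was lower with 1030 and 136.5.

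The effector genes showed the widest gaps. Iigp1, an immunity-related GTPase, was the gene with the largest difference in counts on the lower side, 54225 in wildtype and 4441 in Q133H. Igtp had 22412 and 1392 and Irgm1 15597 and 2439. The guanylate-binding proteins Gbp2 (17586 and 2504), Gbp4 (19019 and 2446) and Gbp5 (4343 and 90.3) were all lower, with log2 ratios of -2.81, -2.96 and -5.57. The chemokines Cxcl9 and Cxcl10, which draw T cells, had 1437 and 14.3 and 2053 and 182.2. Tgtp1, Tgtp2, Gbp6, Gbp7 and Gbp10 were also lower, but each has a near-identical copy with which it can share reads. The 4 genes that were higher were Irgm2 (73.3 and 885.4), Ifit1 (161.9 and 836.1), Rsad2 (155.6 and 372.1) and Oasl1 (9.59 and 22.9). Ifit1, Rsad2 and Oasl1 are antiviral genes that type I interferon induces, and others of that kind were within 2-fold, such as Isg15 (410.3 and 517.5) and Ifit3 (146.2 and 195.3).

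The promoters of 4 of the lower genes are shown because these genes are known γ-interferon targets whose windows held a match to a searched motif. The windows of Psmb9 and Cxcl9 and a second window of Irf1, which were looked at in the same way, held no match and are not printed. Each is the RefSeq window of 250 bases before to 50 bases after the start site on the gene's own strand (GRCm38.p6). Capitals mark matches on either strand to the γ-interferon-activated site, searched as TTCNNNGAA, or to the interferon-stimulated response element, searched as GAAA, any 2 bases and GAAA again. No match of one motif overlapped a match of the other in them.
Gbp2, chr3:142620413-142620712, plus strand: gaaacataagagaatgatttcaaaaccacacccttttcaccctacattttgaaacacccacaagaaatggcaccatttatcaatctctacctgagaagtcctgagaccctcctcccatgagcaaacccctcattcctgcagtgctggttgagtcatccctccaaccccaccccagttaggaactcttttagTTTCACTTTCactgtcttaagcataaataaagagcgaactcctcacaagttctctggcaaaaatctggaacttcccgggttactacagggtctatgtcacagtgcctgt
Gbp5, chr3:142496684-142496983, plus strand: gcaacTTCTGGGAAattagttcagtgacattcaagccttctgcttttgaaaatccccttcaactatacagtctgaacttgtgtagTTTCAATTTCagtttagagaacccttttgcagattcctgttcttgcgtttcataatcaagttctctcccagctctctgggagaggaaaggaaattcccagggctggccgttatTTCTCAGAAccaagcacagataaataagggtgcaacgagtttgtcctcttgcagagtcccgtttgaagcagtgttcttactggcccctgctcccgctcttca
Igtp, chr11:58199306-58199605, plus strand: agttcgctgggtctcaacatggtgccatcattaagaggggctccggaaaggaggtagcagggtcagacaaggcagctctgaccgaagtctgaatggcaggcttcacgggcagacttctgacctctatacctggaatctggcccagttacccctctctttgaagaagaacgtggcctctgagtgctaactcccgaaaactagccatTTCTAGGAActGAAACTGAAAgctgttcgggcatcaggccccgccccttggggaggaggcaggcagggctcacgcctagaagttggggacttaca
Irf1, chr11:53769764-53770063, plus strand: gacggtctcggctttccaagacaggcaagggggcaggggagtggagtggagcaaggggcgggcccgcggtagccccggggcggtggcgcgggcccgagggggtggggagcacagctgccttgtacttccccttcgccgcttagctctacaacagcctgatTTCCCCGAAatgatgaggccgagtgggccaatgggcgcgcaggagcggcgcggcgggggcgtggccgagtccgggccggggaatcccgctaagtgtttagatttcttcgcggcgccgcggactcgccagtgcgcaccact
Gbp2 held 1 response element 59 bases before the start site, Igtp held both motifs, Gbp5 held 2 activated sites and 1 response element, and Irf1 held 1 activated site 90 bases before the start site. Over all 32851 RefSeq promoters, 8.3% held the activated site and 3.44% the response element. Among the interferon response genes with a promoter there, 8 of 19 lower genes held an activated site and 13 held a response element. The shares were 8 and 11 of 24 among members that were not lower. A match in the window is a description and not a site in use.

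Genes of antigen presentation were lower along with the interferon genes. Counts in this paragraph are to be read beside the 8.46% of all genes that were lower. Of 22 measured genes of MHC class I and antigen processing 15 were lower and 0 higher, with a median log2 ratio of -1.46. The immunoproteasome subunits Psmb10 (3792 and 683.5), Psmb9 (3533 and 1011) and Psmb8 (6345 and 2369), the peptide transporter genes Tap1 (8362 and 3622) and Tap2 (4199 and 1484), and Nlrc5 (2418 and 886.6), the transactivator of class I genes, were among them. Class I heavy chain genes were found on both sides of the threshold. H2-T23 (1615 and 554.6), H2-M3 (623.8 and 218.8), H2-T10 and H2-Q1 were lower, while the classical heavy chains and the light chain were within 2-fold. H2-K1 had 27533 and 18038 normalized counts, H2-D1 30935 and 27053, and B2m 37531 and 36594. Of 8 MHC class II genes 6 were lower, with a median log2 ratio of -2.22. Ciita, the master regulator of class II genes, had 650.2 in wildtype and 14.1 in Q133H, H2-Aa had 1386 and 233.7, and the invariant chain Cd74 had 4193 and 846.9, while H2-Eb1 (555.3 and 636.9) were within 2-fold.

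**Figure D2:**
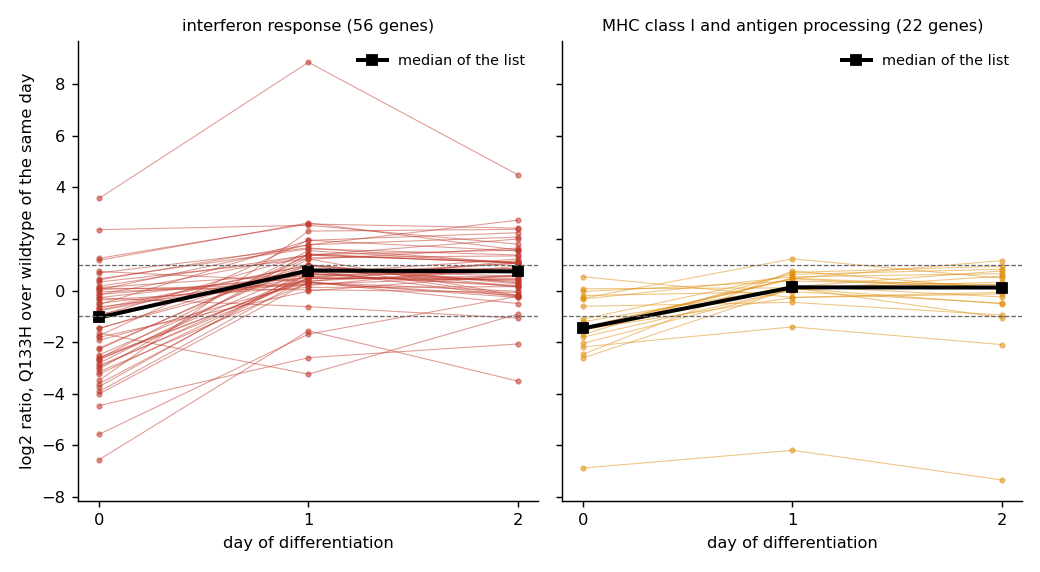
Log2 ratio of Q133H over wildtype of the same day for each measured member of the interferon response list (left) and of the MHC class I and antigen processing list (right) at days 0, 1 and 2, with the median of each list in black. The medians are -1.04 and -1.46 at day 0, 0.78 and 0.13 at day 1, and 0.74 and 0.12 at day 2.

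The interferon list did not lie lower in Q133H at days 1 and 2. The tables of Q133H against wildtype at days 1 and 2 share no library with the day 0 table, and in them 21 and 23 members of the interferon response list were higher and 4 and 4 were lower, with median log2 ratios of 0.78 and 0.74, where 9.49% and 18.0% of all genes were higher. Irf1 had 2226 normalized counts in wildtype and 3045 in Q133H at day 1, and 1364 and 2021 at day 2. Iigp1 had 8700 and 13740.4 at day 1 and 8775 and 10009.8 at day 2. In wildtype these values were below those of day 0 and in Q133H they were above them. The labels list γ-interferon for the proliferation medium and not for the differentiation medium. Levels at different days come from tables that were normalized separately. Gbp5 and Cxcl9 were also lower in Q133H at day 1 (log2 ratios of -1.69 and -1.56), and Cxcl9 was 33.3 and 2.02 at day 2.

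The other lines at day 0, compared with the same wildtype libraries, had the following values. Irf1 had 5236 normalized counts in EMD-/y, 3844 in +EMD, 4524 in S54F and 5292 in Δ95–99 progenitors, all between the values of Q133H (1066) and wildtype (6417). Iigp1 had 50135 in EMD-/y, 37424 in +EMD, 41377 in S54F and 42729 in Δ95–99, against 4441 in Q133H. Ciita lay between 385.6 and 474.3 in these 4 lines, against 14.1 in Q133H. The median log2 ratio to wildtype of the members measured in Q133H was -0.23 in EMD-/y, -0.94 in +EMD, -0.49 in S54F and 0.05 in Δ95–99 for the interferon response list.

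**Figure D3:**
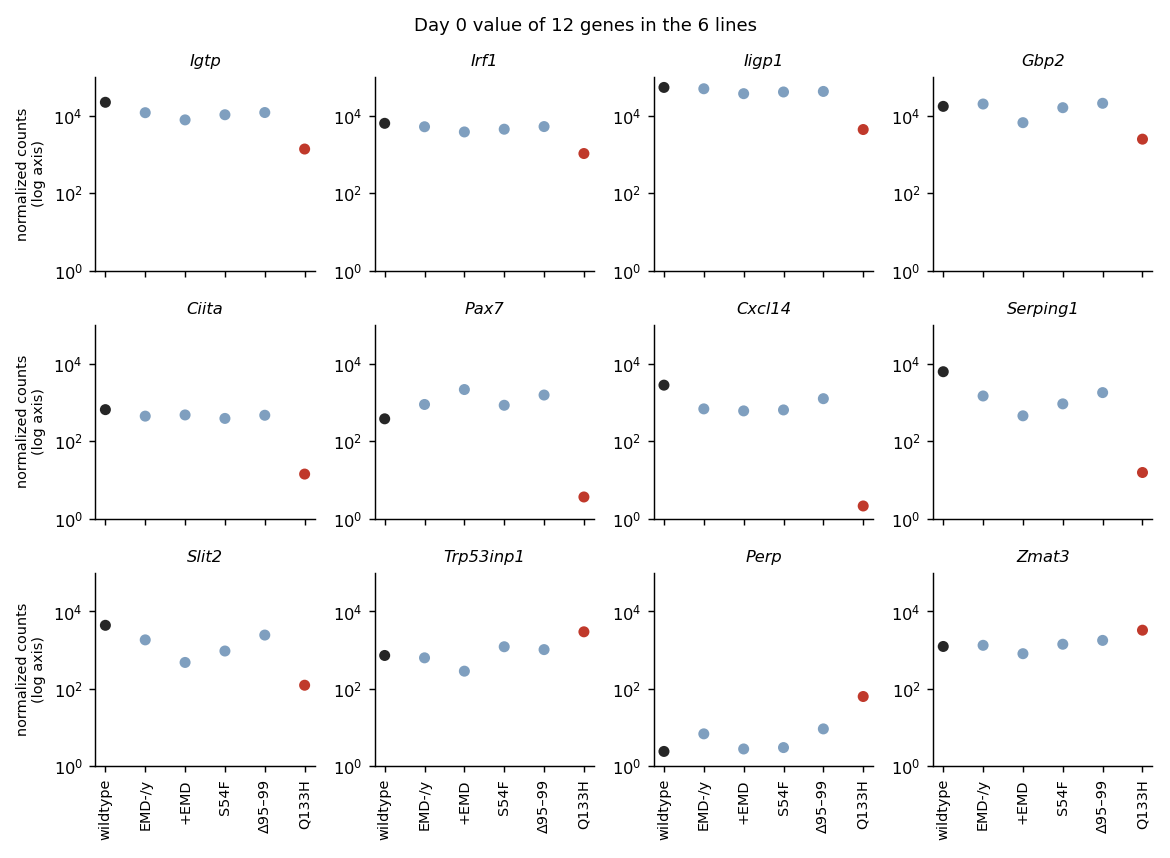
Day 0 value in normalized counts (log axis) of selected genes in wildtype (black), the 4 other lines (blue) and Q133H (red), 1 point for each line and no replicate values. Each line other than wildtype is on the scale of its own table against wildtype. Igtp, Irf1, Iigp1, Ciita and Pax7 are lowest in Q133H, and Trp53inp1, Perp and Zmat3 are highest there.

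Genes of the p53 pathway were shifted upward. p53 is a transcription factor that answers DNA damage and other stress by inducing genes for arrest, repair and death. Of 31 measured members 7 were higher (Ccng1, Mdm2, Trp53inp1, Zmat3, Btg2, Pidd1 and Perp), 1 was lower (Trp63) and 23 were within 2-fold, where 6.31% of all genes were higher. The median log2 ratio was 0.53. Mdm2, the ubiquitin ligase that degrades p53, had 2707 normalized counts in wildtype and 5467 in Q133H. Ccng1, the cyclin G1 gene, had 6768 and 14565, and Zmat3, an RNA-binding p53 target, had 1248 and 3282. Trp53inp1, a stress-induced p53 cofactor (chromosome 4, 11156441 to 11174379), had 730.5 and 2981, a log2 ratio of 2.03. Perp, an apoptosis-associated membrane protein, had 2.43 and 63.7. Cdkn1a, which encodes the cell cycle inhibitor p21, had 7877 and 11536, and Trp53 itself had 3305 and 4668, both within 2-fold.

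At day 1 the p53 list was not higher in Q133H (1 of 32 members higher, 6 lower, median -0.21), and at day 2 it was again (13 of 31 higher, 4 lower, median 0.85). Over all genes 9.49% were higher and 14.6% lower at day 1, and 18.0% higher and 15.5% lower at day 2. Trp53inp1 had 11632.3 normalized counts in wildtype and 9726 in Q133H at day 1, and 3188 and 13468 at day 2. In the other lines at day 0 Trp53inp1 had 634.6 in EMD-/y, 287.2 in +EMD, 1227 in S54F and 1035 in Δ95–99, and the median log2 ratio of the list was 0.08, -0.26, 0.14 and 0.12.

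Proliferation genes were nearly equal at day 0. None of 34 DNA replication genes and 1 of 39 mitosis genes differed by 2-fold, with medians of -0.04 and -0.01. The day 0 counts in this paragraph are to be read beside the 14.8% of all genes that differed by 2-fold. Mki67 had 10733 normalized counts in wildtype and 9424 in Q133H, Top2a 14482 and 10536, and Ccnd1 10273 and 8759. The exception was Pttg1, the securin that guards sister chromatid separation (1467 and 396.9). Of 18 cyclins and cyclin-dependent kinases Cdk6, a kinase of the G1 phase, was lower (4598 and 1847) and Ccng1 was higher, and of 20 CDK inhibitors, pocket proteins and E2F genes E2f2 was lower (578.6 and 168.0). At day 2 the DNA replication and mitosis lists held 27 of 34 and 36 of 39 genes at least 2-fold higher in Q133H, where 18.0% of all genes were higher, with medians of 1.46 and 2.82.

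**Figure D4:**
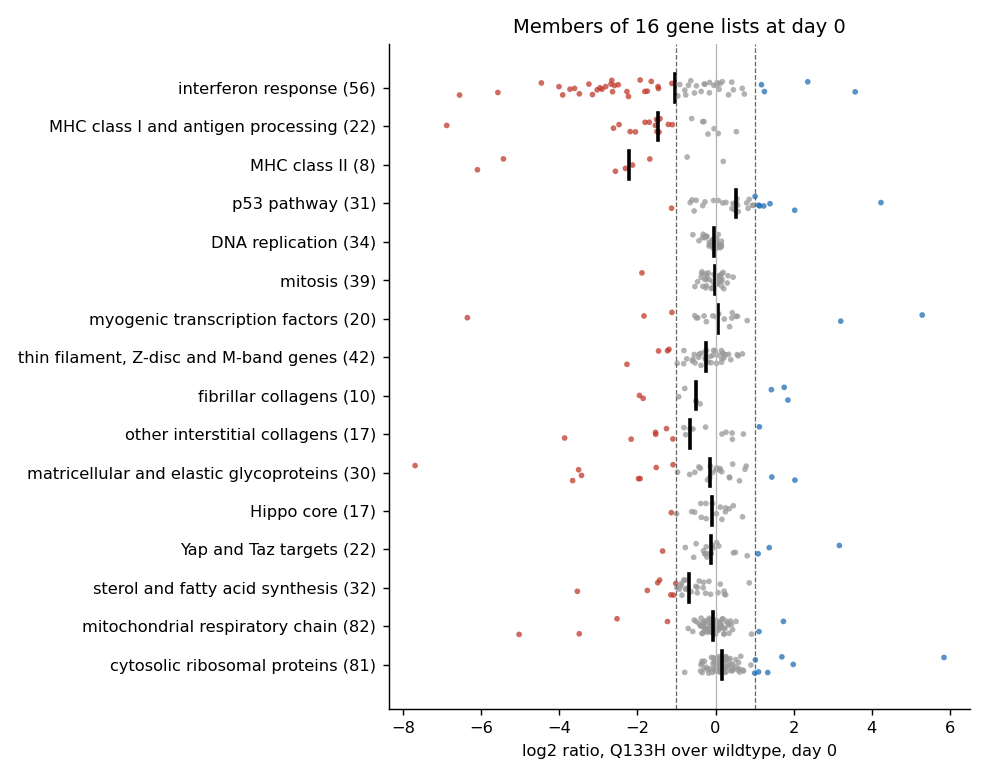
Log2 ratio of Q133H over wildtype at day 0 for each measured member of the named gene lists, with the number of members in parentheses and the median as a black bar. Red points are at least 2-fold lower, blue points at least 2-fold higher and grey points within 2-fold. The interferon and MHC lists lie to the left, the p53 list is shifted to the right, and the DNA replication and mitosis lists sit around 0.

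Markers of the labelled cell type were present in both lines. Myod1 (14146 in wildtype and 11548 in Q133H), Des (15385 and 12705), Cdh15 (3384 and 3375) and Itga7 (5186 and 5885) were high and alike. Of 14 measured progenitor markers 12 were within 2-fold and 14.3% were past it, near the 14.8% over all genes. The surface marker Cd34 was higher (13.7 and 31.2). Pax7, the satellite cell factor (chromosome 4, 139737059 to 139833530), was lower, with 376.7 normalized counts in wildtype and 3.62 in Q133H. Pax7 was 140.6 and 6.54 at day 1 and 53.5 and 8.3 at day 2. In the other lines at day 0 it was higher than in wildtype, 883.6 in EMD-/y, 2148 in +EMD, 842.9 in S54F and 1549 in Δ95–99. The close relative Pax3 (265.3 and 354.4) and Myf5 (219.4 and 386.0) were within 2-fold.

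Markers of other cell types were measured as well. Endothelial markers summed to 47.6 normalized counts in wildtype and 37.4 in Q133H, and haematopoietic markers to 122.5 and 143.6. Of 12 measured fibroblast and fibro-adipogenic markers 5 were lower and 1 was higher, beside 8.46% lower and 6.31% higher over all genes. Their median log2 ratio was -0.53, and their sum was 32359 and 16565. Most of that sum was the collagen gene Col3a1 (23338 and 12135) and Ly6a (4896 and 721.2), which encodes the surface antigen Sca-1 and is also an interferon target. Pdgfra, 1 of the 6 members within 2-fold, had 37.4 and 45.7. Of 9 smooth muscle and pericyte markers 1 was higher and 0 were lower, and their sum was 49250 and 30388, mostly from Acta2 (38008 and 23067), an actin gene that myoblasts also express. Of 4 Schwann and neural markers 2 were lower (sum 1700 and 645.7), and of 7 tendon and cartilage markers 3 were higher and 2 lower (sum 904.3 and 1332). Adipocyte markers summed to 2335 and 2070 with 0 of 4 past 2-fold, and epithelial markers to 103.6 and 41.0 with 1 of 2 lower. The part of other cells in the differences was not tested. In bulk samples, fewer cells of a type and less RNA per cell cannot be told apart.

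Single myogenic regulators differed in both directions. Of 20 measured myogenic transcription factors 3 were lower (Pax7, Pitx3 and Eya2) and 2 were higher (Lbx1 and Six2). Over all genes 8.46% were lower and 6.31% higher, and the median log2 ratio of the list was 0.05. Eya2 lay near the minimum (11.8 and 4.88). Myog, which drives terminal differentiation, had 7606 in wildtype and 5422 in Q133H. Pitx3, a homeodomain factor of muscle, had 242.6 and 67.5. Lbx1, a homeobox gene of migrating limb muscle precursors, had 2.4 and 132.3, and Six2 had 19.3 and 186.6. Lbx1 and Six2 were also higher than in wildtype in the 4 other lines at day 0 (93.1 to 242.2 and 271.7 to 539.1), whereas Pitx3 was lowest in Q133H (283.8 to 612.4 in the 4 lines). Among Id proteins and Notch effectors Heyl was lower (242.7 and 60.5), and Hey1 (87.1 and 181.7) and Id4 (13.4 and 43.9) were higher.

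Contractile genes were mostly within 2-fold at day 0, and the counts of lower genes in the lists below are to be read beside the 8.46% of all genes that were lower. Of 42 thin filament, Z-disc and M-band genes 4 were lower and 0 higher (median -0.23), among them Actn3 of the Z-disc (1164 and 422.8) and Tcap, or telethonin (51.9 and 22.1). Myh3, the embryonic myosin heavy chain, had 9204 and 7850. The myosin heavy chain genes Myh1 (1137 and 3659) and Myh7 (193.9 and 525.0) were higher and Myh2 (113.5 and 5.0) was lower. Genes of this family resemble each other and may share reads. The search for near-identical copies paired none of Myh1, Myh7 and Myh2 with each other. It did pair a stretch of Myh7 with Myh6, and stretches of Myh1 and Myh2 with other transcripts, which leaves these counts uncertain. Of 21 excitation-contraction coupling genes 3 were lower, including the calcium pump Atp2a1 (1662 and 655.6) and the calcium channel subunit Cacng1 (1396 and 621.6). Of 20 fusion and adhesion genes 3 were lower, namely Jam2 (1542 and 643.0), Cav3 (493.2 and 231.0) and Cd9 (3444 and 1679), and the fusogen gene Mymk had 3329 and 2128. Of 21 genes of the dystrophin-glycoprotein complex list 4 were lower and 0 higher. None of 12 acetylcholine receptor and synapse genes differed.

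By contrast, 38 of 43 measured thin filament, Z-disc and M-band genes were lower in Q133H at day 1 and 39 of 44 at day 2, where 14.6% and 15.5% of all genes were lower, with medians of -4.21 and -2.58. Myh3 had 72013 normalized counts in wildtype and 1996 in Q133H at day 1. 

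**Figure D5:**
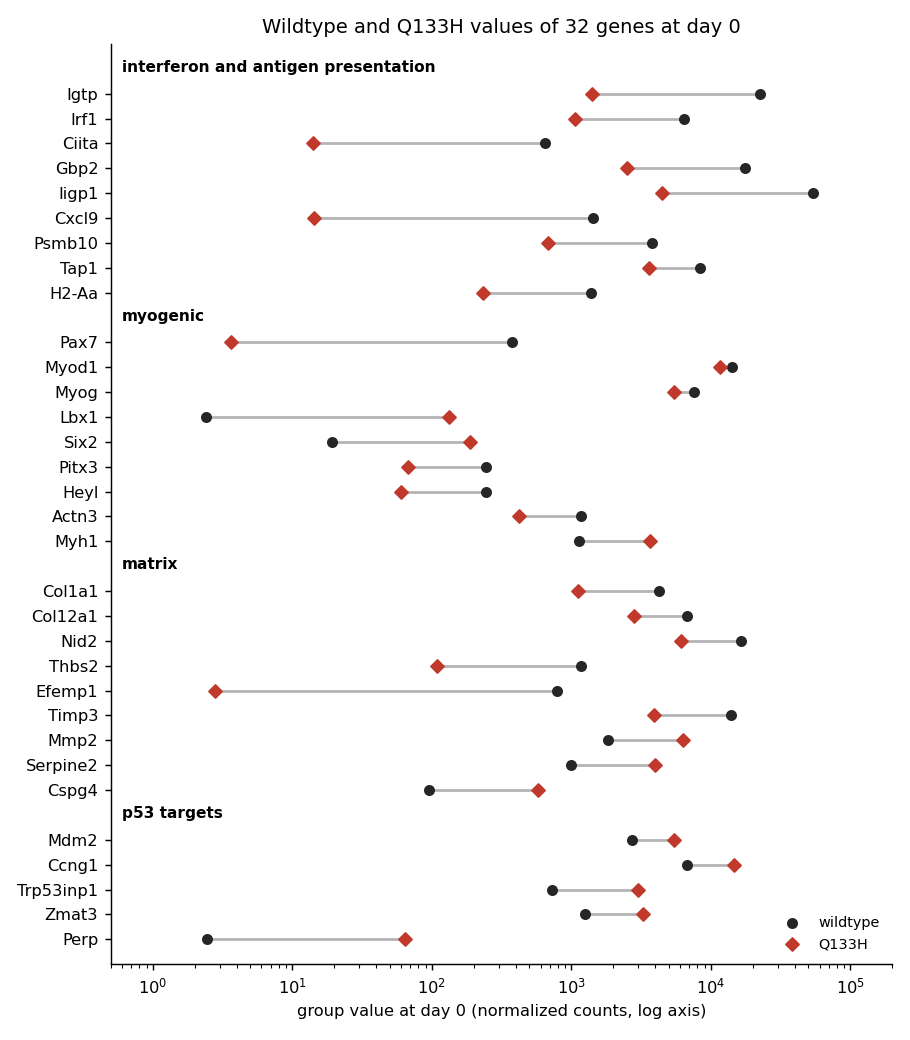
Wildtype (black circles) and Q133H (red diamonds) values at day 0 in normalized counts (log axis) for genes of the interferon, myogenic, matrix and p53 groups, with a grey line joining the 2 values of a gene. Interferon genes are lower in Q133H, p53 targets are higher, and myogenic and matrix genes lie on either side.

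Genes of the extracellular matrix differed in both directions. Counts in the matrix lists are to be read beside the 8.46% of all genes that were lower and the 6.31% that were higher. Among fibrillar collagens Col1a1 (4275 in wildtype and 1107 in Q133H) and Col5a3 (1515 and 418.6) were lower, and Col11a1 (151.3 and 409.4), Col24a1 (21.0 and 73.4) and Col2a1 (3.38 and 14.8) were higher. Col1a2, the partner chain of Col1a1, had 33035 and 23323, and Col3a1 had 23338 and 12135, both within 2-fold. Of 17 other interstitial collagens 6 were lower and 1 was higher, with Col12a1 (6681 and 2799), Col26a1 (216.6 and 47.7) and Col8a2 (94.6 and 5.57) among the lower genes. In the basement membrane Nid2, a nidogen that links laminin to collagen IV, had 16348 and 6058.

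Of 30 matricellular and elastic glycoproteins 8 were lower and 2 higher. Efemp1, a fibulin, had 786.1 normalized counts in wildtype and 2.81 in Q133H, Thbs2, a thrombospondin, had 1173 and 107.8, and Mfap2, a microfibril protein, had 102.6 and 7.2. Among proteoglycans Gpc1 was lower (15992 and 7469.6) and Cspg4, the NG2 proteoglycan, was higher (94.9 and 575.3). Matrix-degrading enzymes and their inhibitors split as well. The metalloproteinase inhibitor Timp3 (13954 and 3884) and the aggrecanases Adamts5 (2261 and 467.0) and Adamts4 (2250 and 904.8) were lower, while the gelatinase Mmp2 (1837 and 6326), the serine protease inhibitor Serpine2 (991 and 3947) and Adamts9 (9.52 and 91.0) were higher. Of these, Col1a1, Col5a3, Nid2, Efemp1 and Adamts5 were lower and Cspg4 and Col11a1 were higher by at least 2-fold at days 1 and 2 also, and Timp3 was not (log2 ratios of -0.06 and 1.55).

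Genes of the Hippo pathway, which restrains the coactivators Yap and Taz, were nearly alike. Of 17 core genes Vgll3, a TEAD cofactor, was lower (5652 and 2580) and the others were within 2-fold, including Yap1 (2777 and 2820), Wwtr1, which encodes Taz (3708 and 5993), and Lats2 (2799 and 2373). Of 22 Yap and Taz targets 3 were higher and 1 was lower, beside 6.31% higher and 8.46% lower over all genes. Igfbp3, an IGF-binding protein, had 183.3 and 1659, Rbms3 234.7 and 501.3 and Fjx1 24.6 and 65.5, and F3, the tissue factor gene, had 539.1 and 210.2. The widely used targets Ccn1 (12355 and 11664), Ccn2 (4198 and 4288) and Ankrd1 (17607 and 15121) were within 2-fold. Of 23 targets of SRF and its cofactor MRTF 3 were lower, namely Actg2 (1064 and 118.1), Myl9 (6649 and 2579) and Cnn2 (12980.2 and 6336), and the median was -0.56.

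Single genes of secreted signals and their receptors differed in both directions. The list counts are to be read beside the 8.46% of all genes that were lower and the 6.31% that were higher. Of 34 measured Wnt pathway genes 9 were lower, including the antagonists Dkk3 (498.1 and 22.6) and Sfrp1 (1020.5 and 316.2) and the ligand Wnt4 (167.8 and 33.4), and 4 were higher, including the ligand Wnt5a (229.1 and 990.2) and the transcription factor Lef1 (194.9 and 470.2). Of 33 TGF-beta and BMP genes 5 were lower and 4 higher. Bmp4 had 195.6 and 11.8, and the activin antagonist Fst had 2581 and 1039. Of 37 growth factors and receptor kinases 8 were lower, including Pdgfb (569.2 and 46.6), Pdgfd (582.5 and 101.7) and Fgfr4 (339.3 and 32.8), a fibroblast growth factor receptor of myoblasts, and 2 were higher. In the insulin-like growth factor axis Igfbp4 (1430 and 341.3), Igfbp6 (741.4 and 145.5) and Igf2bp1 (187.4 and 18.7) were lower, and Igfbp3, Pappa, a protease of IGF-binding proteins (25.8 and 100.0), and Igf2bp3 (293.1 and 1188) were higher. The chemokine Cxcl14 had 2788 and 2.12, and Lif was higher (61.6 and 268.9).

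Sterol and fatty acid synthesis was the metabolic list with the clearest offset. Of 32 measured members 7 were lower and 0 higher, with a median log2 ratio of -0.68, where 8.46% of all genes were lower. They included the cholesterol synthesis enzymes Nsdhl (939.7 and 279.4) and Dhcr7 (630.5 and 233.2). Idi1 (1481 and 701.5) and Fdft1 (1275 and 629.2) were also lower and have near-identical copies. The respiratory chain (6 of 82 past 2-fold) and glycolysis (2 of 25) had few members past 2-fold, beside 14.8% over all genes.

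Several large differences are uncertain because a near-identical transcript exists elsewhere in the genome. Hmga1 had 8768 normalized counts in wildtype and 23219 in Q133H while its copy Hmga1b had 7494 and 23.3. Kpna2 (94.9 and 7215), Rpl26 (90.6 and 5284), Gapdh (1534 and 27603), Rps3a1 (7248 and 18310) and Eno1b (4423 and 41.3) also have such copies. Rps29 (100.2 and 401.0), Rps13 (681.4 and 2214) and Atp5g2 (839.1 and 2804) have no such copy but separated libraries across the series. Their values were higher in each of 6 groups (Q133H, S54F, Δ95–99 and +EMD at day 0, and wildtype and EMD-/y at day 1) than in each of the other 12, a division that no label names. In all, 65 of 609 predicted genes and 32 of 12118 annotated genes divided the groups in this way, and 59 of those 65 and 8 of those 32 were past 2-fold at day 0. Wildtype and Q133H at day 0 lie on opposite sides of this division. At day 1 they also lie on opposite sides, with wildtype and Q133H exchanged, and at day 2 on the same side, and its part in the differences was not tested. Of the 8 genes, Rps29, Rps13, Rpl5 and Atp5g2 belong to the ribosomal and respiratory chain lists. The rule asks for each of the 6 groups to lie beyond each of the other 12. Genes that also vary with line or day can therefore miss it, and these counts do not measure how far the division reaches.

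The largest ratios in each direction, up to 12, were taken among named genes with at least 100 normalized counts in 1 line. On the lower side were Gbp2b (3219 in wildtype and 1.7 in Q133H), Cxcl14, Ifi202b (2134 and 1.42), Emd, Serping1, which encodes the C1 inhibitor of complement (6195 and 15.5), Hmga1b, Efemp1, the inflammatory caspase Casp1 (477.0 and 2.49), H2-Q1 (749.8 and 5.36), Tcfl5 (276.3 and 1.37), Eno1b and Megf6 (198.3 and 1.04). On the higher side were the interferon-inducible genes Mndal (3.84 and 842.5) and Ifi211 (19.1 and 1596), the adhesion genes Cdh10 (1.95 and 246.6) and Pcdh9 (1.68 and 171.6), Eif2s3y, a Y-linked translation factor gene (17.8 and 1442), Zfp729b, Kpna2, Cldn34c1, Nexmif (1.04 and 131.6), Aff2 (2.0 and 173.2), and Rpl26. Stretches of Ifi211, H2-Q1, Tcfl5 and Cldn34c1 match another transcript nearly or fully, so that their counts are uncertain. The same holds for further genes above, among them Nid2, Timp3, Igf2bp3, Cd9, Ifit3, H2-T10, H2-D1, Lats2, Cdkn1a and Des.

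The values in the other lines, compared with the same wildtype libraries, were as follows. Gbp2b, Ifi202b, Mndal, Ifi211 and Eif2s3y lay on the same side of wildtype in Q133H and in the other lines derived from EMD-/y cells, for example Mndal with 1178 in EMD-/y and 612.7 to 1148 in +EMD, S54F and Δ95–99, and Gbp2b with 4.76 in EMD-/y and 2.32 to 3.19 in the others. Steap1, which lost the fourth largest number of counts (21650 and 824.1), had 998.9 in EMD-/y. Serping1 and Slit2 were also below wildtype in the 4 other lines, and were lower still in Q133H. Serping1 had 450.3 to 1790 in the 4 other lines against 15.5, Slit2, a guidance ligand, had 482.3 to 2457 against 124.6 (4388 in wildtype), and Pcdh9 had 0.55 to 18.9 against 171.6.

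Nes, the nestin gene of the intermediate filament network of progenitors, was among the highest expressed genes that differed, with 46770 in wildtype and 19900.2 in Q133H. It was also lower at day 1 (51150 and 15120) and day 2 (56143 and 20754).

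Part of the day 0 differences was found again after differentiation began. Of 704 annotated genes higher at day 0, 388 were at least 2-fold higher at day 1 and 486 at day 2, where 9.49% and 18.0% of all genes were higher, and 346 at both days. Of 880 annotated genes lower at day 0, 506 were lower at day 1 and 422 at day 2, where 14.6% and 15.5% of all genes were lower, and 395 at both days. The opposite direction was seen for 35 and 25 of the higher genes and for 56 and 102 of the lower ones. Cxcl10 and Gbp2 were lower at day 0 and at least 2-fold higher at both later days, with log2 ratios of 2.31 and 1.21 at day 1 and 2.37 and 1.65 at day 2.

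Genes that differed between wildtype at day 1 and wildtype at day 2 were set against the day 0 difference. At least 4-fold higher in wildtype at day 2 than at day 1 were 293 genes (2.21% of those measured), and at least 4-fold lower were 349 (2.63%), 4.84% together. Of the 293 higher genes, 193 reached the minimum at day 0, of which 96 were lower and 11 higher in Q133H, with a median log2 ratio of -0.95. Predicted genes made up 59 of the 96. In the division described above, wildtype at day 1 lies with Q133H at day 0, and wildtype at day 2 lies with wildtype at day 0. The part of the division in these counts, of predicted and of annotated genes, was not tested. Among annotated genes 37 of 125 were lower and 11 higher, with a median of -0.28, beside 7.01% lower and 5.61% higher over all annotated genes. The largest ratios among the 37 were those of Atp5md (507.3 and 14.6), Xpnpep2 (56.6 and 1.6) and Galnt6 (82.4 and 2.83). Pebp1, Rtl8b and Wdr89, also among the 37, are genes that divided the groups as described above. Ckm (171.8 and 34.9), which encodes the muscle creatine kinase and has a similar paralog, Casq1 (12.1 and 3.76) and Atp2a1 were among the lower ones as well. Of the 349 lower genes 329 were measured at day 0, with a median of -0.01. Of these, 44 were higher and 24 lower, beside 6.31% higher and 8.46% lower over all genes. Predicted genes made up 15 of the 44. Among 300 annotated genes 29 were higher (9.67%) and 22 lower (7.33%), near the shares over all annotated genes given above.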

How the data were processed

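RNA-seq of H2K progenitors was taken from the authors' comparison tables. Per the submitters' processing notes the reads were aligned with HISAT2 and compared with DESeq2 on mm10. The deposited Expression columns hold a signal, normalized counts, as 1 value for each group. Their sum over both groups is that of counts divided by library size factors, and the authors' split between the groups is shrunken toward equality, so that no value is 0 and differences of low genes are understated. The tables also hold the authors' fold changes and p-values, which were not used. From the signal columns the log2 ratio was computed with a pseudocount of 1, and 2-fold was called where the higher value reached 10. The signal columns give no per-library value, so that no error or test was computed, and the labels do not settle whether the 3 replicates are separate cultures. Named genes were Emd, list members past 2-fold, the matrix, Hippo and myogenic lists, the 12 largest ratios and the 8 largest differences in each direction. Other genes of the lists are given for context and were chosen after their values were seen. Members and lists were chosen with earlier results of these data known. Near-identical transcripts were found with minimap2 2.31 on GRCm38.p6. Python 3.11.15, pandas 2.3.3 and numpy 2.4.6 were used. The code for the calls was run on simulated data that had unshrunken values and larger changes, in well-expressed genes only. It therefore does not show how the calls perform on the shrunken values. Some genes that met the rule are not reported here.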

Additional observations from a re-analysis of the deposited data

How the results depend on the processing

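No paired analysis was possible because the table gives 1 value for each group and no replicate values, and for the same reason leaving out a replicate was not run. Raising the minimum of the higher value to 50 gave 525 genes higher, 460 of them annotated, 528 of the day 0 genes in the same direction at both later days (886 at the minimum of 10), and 62 genes of the set higher at day 2 in wildtype that were lower in Q133H (96 at the minimum of 10). Without predicted genes, an alternative chosen after seeing the data, the last count was 37. In each case fewer genes were counted by construction. Across the other planned settings the number of genes higher lay between 742 and 1018, and across all planned settings the number lower lay between 770 and 1357. None of 1862 values reversed direction, but many could not have. Counts of genes have no direction. A gene's ratio keeps its sign when the pseudocount or the minimum changes or when other genes are left out. Of 1466 values for 222 named genes, 1449 stayed on the same side of 2-fold and 17 did not, Oasl1, Cd34, Casq1 and Trp63 with a pseudocount of 5 and Cnn2 with equal sums among them. The median of the interferon response list was -0.91 with no minimum and -0.85 without genes that have a near-identical copy, an alternative also added after seeing the data, which left 4 sterol genes lower and 3 ribosomal protein genes higher. Low values limit the differences, since 1 read gives 0.149 to 0.16 in the column of the group without it.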

Other observations

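Some patterning genes, which record the body position of a cell's origin, also differed between the lines at day 0. Their counts are to be read beside the 8.46% of all genes that were lower and the 6.31% that were higher. Of 24 measured Hox genes 7 were lower and 1 was higher in Q133H. Hoxb3 had 88.0 normalized counts in wildtype and 0.95 in Q133H, Hoxb2 had 65.8 and 0.91 and Hoxb4 had 46.3 and 1.23, while Hoxc8 had 35.1 and 98.6. Of 23 T-box and limb patterning factors 7 were higher and 3 lower. Tbx20, a T-box factor of the heart, had 158.4 and 668.9, Meis2, a Hox cofactor, had 221.0 and 931.7, and Zic4 had 170.0 and 51.6. Each of these genes other than Zic4 had a log2 ratio of the same sign and at least 1.5 in size at days 1 and 2.

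Of 55 semaphorins, ephrins and other guidance genes 6 were higher and 9 lower, with a median log2 ratio of 0.0045. For this list and the cadherins below, the shares over all genes were 6.31% higher and 8.46% lower. Beside Slit2, the ligand Sema3a had 1839 and 5701 normalized counts, and its match to another transcript leaves the count uncertain. Efna1, an ephrin, had 75.4 and 305.7, and Unc5c, a netrin receptor, had 944.7 and 342.3. Of 48 cadherins and protocadherins 9 were higher and 9 lower. Cdh1, the epithelial cadherin, had 52.4 and 3.19, and Pcdh10 had 26.2 and 197.3. The γ-protocadherin genes were found in both groups (Pcdhgb6 with 65.9 and 5.38, Pcdhgb2 with 71.1 and 422.4), and their transcripts share exons, which leaves these counts uncertain.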
